A study of Mus musculus with 2 samples.

Results

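The 37 genes described here encode chaperones of the cytosol and of mitochondria, their co-chaperones and the heat-shock factors Hsf1 and Hsf2. They were chosen by symbol, with earlier results of these data known, and all 37 had a row in both libraries, among 31053 genes in all. By role they fall into the inducible HSP70 genes (2 genes), the constitutive HSP70 and HSP110 genes (3), the HSP90 system (9), co-chaperones of HSP70 (4), HSP40 proteins (6), mitochondrial chaperones (4), subunits of the CCT chaperonin (7) and the heat-shock factors (2). The cells were natural killer (NK) cells sorted by flow cytometry from the brains of 8-month-old female mice that had received no treatment. The wildtype group was C57BL/6, and the other group was 3XTg-AD, a transgenic mouse line that develops amyloid and tau pathology. Each group was 1 single-cell library made with the 10x 5′ chemistry, which counts unique molecular identifiers (UMIs). How many mice went into a library, and the background strain of 3XTg-AD, were not given in the sources used here. With 1 library per group there was no test of the groups: every ratio below compares 2 libraries, and its 95% interval covers counting error only.

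Chaperones bind unfolded or partly folded proteins and release them in cycles driven by ATP. HSP40 proteins deliver clients to HSP70, nucleotide exchange factors free them from it, and HSP90 with its own co-chaperones finishes the folding of kinases and receptors, while the CCT ring folds actin and tubulin and the HSP60 ring folds proteins inside mitochondria. When unfolded protein accumulates, heat-shock factor 1 binds arrays of short inverted repeats in promoters and switches on the inducible HSP70 genes. Immune cells also express these genes on activation, and tissue digestion and sorting are known to induce some of them.

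The wildtype library held 1709 barcodes and 5559995 UMIs, and the 3XTg-AD library 1695 barcodes and 5468455 UMIs. Barcodes with at least 2 UMIs of the NK receptor genes Ncr1, Klrb1c, Klre1, Klrk1 and Klrd1 were split by 5 genes of type 1 innate lymphoid cells (ILC1), Itga1, Cxcr6, Inpp4b, Gzmc and Tnfsf10. Those with at least 3 summed UMIs were called ILC1-like (94 wildtype and 72 3XTg-AD barcodes), and the others NK (1495 and 1520). The median depth of NK barcodes was 2858 and 2783 UMIs, and that of ILC1-like barcodes 5281 and 5555 UMIs, so the ILC1-like rule also selected deeper barcodes. NK genes outside the rule (Eomes, Itga2, Klrg1, S1pr5, Gzma, Prf1, Cma1 and Irf8) summed to 23687 and 23468 CPM (counts scaled to 1e+06 UMIs) in NK barcodes. In ILC1-like barcodes they summed to 4791 CPM in wildtype and 1823 CPM in 3XTg-AD, and the 5 rule genes to 2326 and 1151 CPM. Most of these differences lay in Gzma (4125 and 1412 CPM) and Gzmc (1457 and 316 CPM). Prf1 (288 and 114 CPM) and Irf8 (123 and 58.4 CPM) were also lower. Itga1 (161 and 148), Cxcr6 (217 and 190), Inpp4b (389 and 387), Tnfsf10 (103 and 110) and Eomes (193 and 204) were close. In NK barcodes Gzma alone gave 20103 and 19845 CPM of the NK gene sum, and Eomes was at 217 and 237 CPM. Eomes therefore did not separate the classes, while the other NK genes named above were each lower in ILC1-like barcodes. A list of 8 ILC1 genes outside the rule (Cd200r1, Il7r, Tmem176a, Tmem176b, Cd69, Itgae, Ltb and Cxcr3) summed to 1113 and 1078 CPM, beside 244 and 155 CPM in NK barcodes. Ltb supplied 714 and 574 CPM of the ILC1-like sums, while Il7r (52.4 and 90.1) and Cxcr3 (56.1 and 90.1) were higher in 3XTg-AD. Cd69 was lower in ILC1-like barcodes (18.7 and 9.74 CPM) than in NK barcodes (23.9 and 15.3), and wildtype Il7r was level with NK (53.5). The others were higher in ILC1-like barcodes. The makeup of the ILC1-like class thus differed between the libraries, mainly in Gzma and Gzmc. Its part in the ILC1-like ratios below was not tested.

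In NK barcodes the chaperone genes as a set took a larger share of UMIs in 3XTg-AD than in wildtype. The 37 genes together made up 0.695% of wildtype UMIs and 1.11% of 3XTg-AD UMIs, a ratio of 1.59 (95% interval 1.57 to 1.62). A gene was measured when both libraries together held 100 UMIs or more, which left out only Hsf2, and 14 of the 36 measured members were past 1.5-fold on the 3XTg-AD side, against 3.45% of the 7219 genes measured the same way. None was at least 1.5-fold lower, against 2.42% of all genes. The ratio was above 1 for 33 of the 36 members, and the counting interval lay wholly above 1 for 27. The median log2 ratio of the members was 0.49, beside 0.05 for all genes measured. The most abundant members, Hspa8 and Hsp90ab1, supplied 36.8% of member UMIs in wildtype and 42.6% in 3XTg-AD. Without this pair the summed ratio was 1.45 (1.42 to 1.47).

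**Figure D1:**
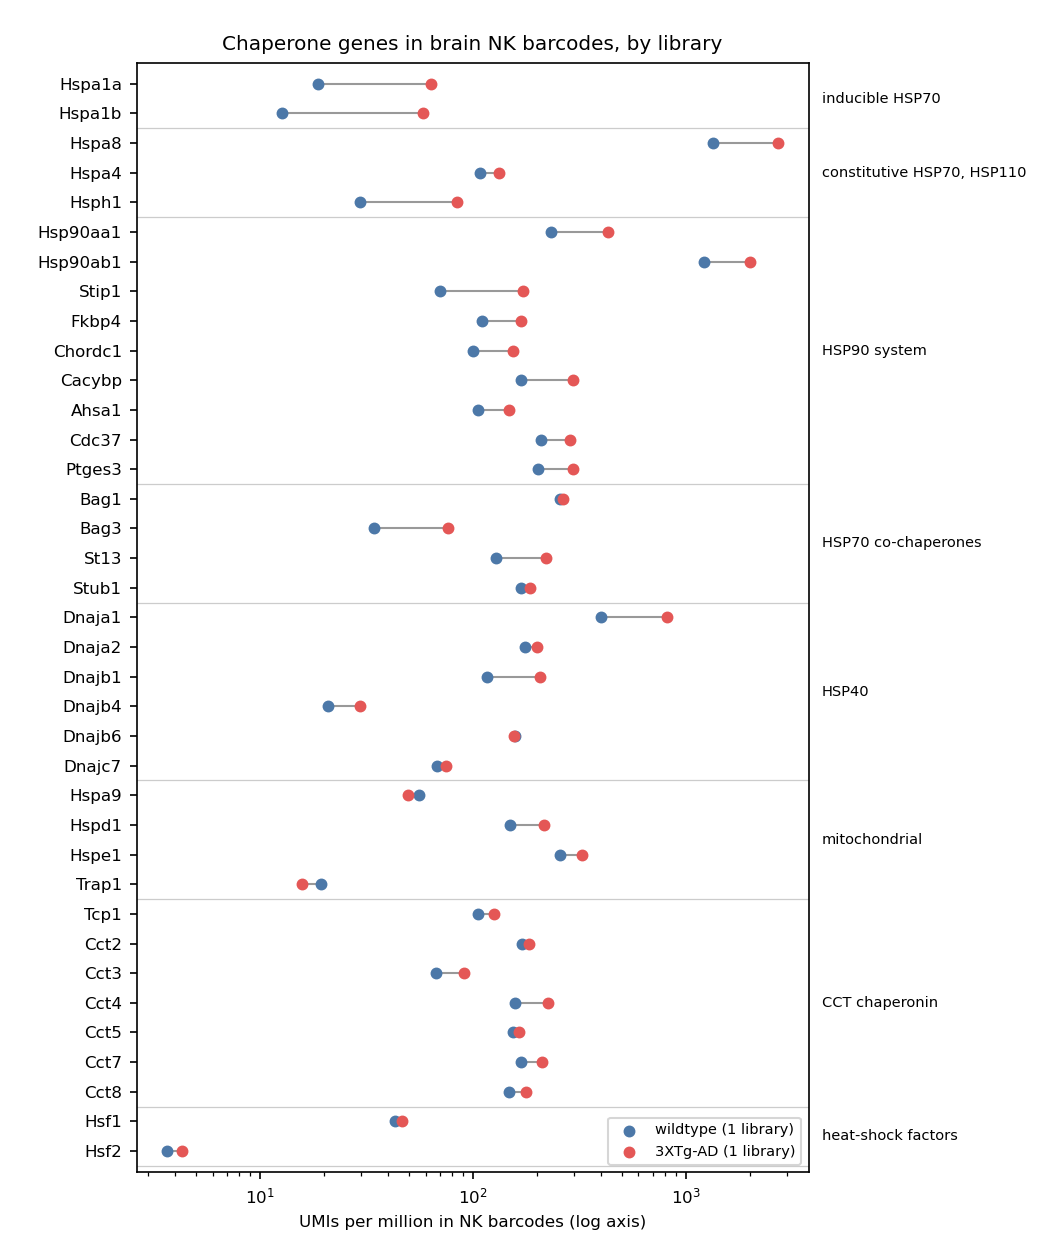
Level of each of the 37 members in NK barcodes, in CPM on a log axis, with 1 point per library (blue wildtype, red 3XTg-AD) and members ordered by role. The gaps are widest for Hspa1a, Hspa1b, Hsph1 and Stip1, while Hspa9, Trap1 and Dnajb6 have the red point at or below the blue one.

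The inducible HSP70 genes Hspa1a and Hspa1b, neighbouring copies on chromosome 17 that encode the cytosolic HSP70 made under proteotoxic stress, had the highest ratios of all members. Hspa1a was counted 87 times in wildtype NK barcodes (18.8 CPM) and 294 times in 3XTg-AD (63.4 CPM), a ratio of 3.38 (2.65 to 4.34). Hspa1b was counted 59 times (12.7 CPM) and 271 times (58.4 CPM), a ratio of 4.59 (3.45 to 6.19) that ranked as number 2 of the 7219 genes. The longest open reading frames of the 2 copies have the same base at 1890 of the 1926 positions compared. Reads can therefore match both copies, and the sum is given as well. How such reads were counted was not checked, so the sum may miss some of them. Summed, they gave 31.5 CPM in wildtype and 122 CPM in 3XTg-AD, a ratio of 3.87 (3.22 to 4.67). The 250 bases before each start are shown because they also differ at only 3 positions, and because a pair of heat-shock units lies at the same place in both. Capitals mark the units GAA and TTC of that pair, which begins 104 bases before the start. Both lie on the minus strand of GRCm38.p6, Hspa1a at chr17:34972157-34972406 and Hspa1b at chr17:34959239-34959488, with the sequences from RefSeq, written 5′ to 3′.
Hspa1a: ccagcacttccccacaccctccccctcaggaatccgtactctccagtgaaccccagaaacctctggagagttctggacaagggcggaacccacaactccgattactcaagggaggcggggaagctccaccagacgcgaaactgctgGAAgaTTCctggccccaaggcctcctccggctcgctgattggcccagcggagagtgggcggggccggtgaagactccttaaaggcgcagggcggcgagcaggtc
Hspa1b: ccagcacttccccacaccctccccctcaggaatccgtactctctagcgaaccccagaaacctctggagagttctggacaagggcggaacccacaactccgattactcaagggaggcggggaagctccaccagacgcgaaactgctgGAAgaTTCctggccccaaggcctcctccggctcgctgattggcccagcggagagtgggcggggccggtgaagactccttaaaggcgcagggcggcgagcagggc

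Inducible HSP70 UMIs were found in a minority of barcodes. With every barcode thinned at random to 1400 UMIs, 39 of 1372 wildtype NK barcodes held at least 1 UMI of either gene (2.84%, exact interval 2.03 to 3.87%) and 180 of 1435 3XTg-AD barcodes did (12.5%, 10.9 to 14.4%). Without thinning the shares were 6.29% and 19.6%. At least 2 UMIs were found in 9 and 47 thinned barcodes. The 5% of barcodes with the most UMIs of these genes held 87.0% of them in wildtype and 51.5% in 3XTg-AD. With any such UMI in only 6.29% of wildtype barcodes, the top 5% there had to hold most of them. These genes averaged 0.037 and 0.170 UMIs per thinned NK barcode, too few for most barcodes to hold any. The shares therefore do not show whether few or most cells expressed these genes. Before thinning, 10 wildtype and 59 3XTg-AD barcodes held UMIs of both copies. No cell class here lacks these genes by definition, so no background of free RNA was set beside these shares, and its part was not tested.

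Among the constitutive HSP70 and HSP110 genes, Hspa8, the housekeeping HSP70 of the cytosol, was counted 6247 times in wildtype NK barcodes (1348 CPM) and 12570 times in 3XTg-AD (2711 CPM). Its ratio was 2.01 (1.95 to 2.07). Hsph1, an HSP110 protein that exchanges the nucleotide of HSP70, was at 137 UMIs (29.6 CPM) and 392 UMIs (84.5 CPM), a ratio of 2.86 (2.35 to 3.50). Hspa4, the related HSP110 gene, gave 108 CPM and 133 CPM, a ratio of 1.23 (1.09 to 1.39). Thus 2 of the 3 genes were past 1.5-fold, and the 2 HSP110 genes differed, with counting intervals that did not overlap.

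All 9 members of the HSP90 system were higher in 3XTg-AD NK barcodes, 6 of them by at least 1.5-fold, and their sum went from 2412 to 3964 CPM (1.64, 1.61 to 1.68). Hsp90aa1, the stress-responsive HSP90, was at 1080 UMIs in wildtype (233 CPM) and 2003 UMIs in 3XTg-AD (432 CPM), a ratio of 1.85 (1.72 to 2.0). Hsp90ab1, the constitutive HSP90, was at 5624 UMIs (1213 CPM) and 9333 UMIs (2013 CPM), a ratio of 1.66 (1.60 to 1.71). Stip1, the adaptor that hands clients from HSP70 to HSP90, had the highest ratio of the system, with 324 UMIs (69.9 CPM) and 796 UMIs (172 CPM) and a ratio of 2.46 (2.16 to 2.80). The other members past 1.5-fold were Cacybp, a calcyclin-binding protein (1.74), the co-chaperone Chordc1 (1.55) and the immunophilin Fkbp4 (1.52). The last 2 were at 1.49 and 1.46 with the ratios set to the all-gene median, and Fkbp4 was also below 1.5 in 4 other alternatives. Just below the threshold were Ptges3, the p23 protein that stabilises closed HSP90 (1.47), the ATPase activator Ahsa1 (1.41) and Cdc37, which brings kinases to HSP90 (1.37).

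The co-chaperones of HSP70 divided into 2 pairs. Bag3, a nucleotide exchange factor that feeds selective autophagy, was at 159 UMIs in wildtype (34.3 CPM) and 353 UMIs in 3XTg-AD (76.1 CPM), a ratio of 2.22 (1.84 to 2.69). St13, which stabilises HSP70 bound to its client, was at 129 and 220 CPM, a ratio of 1.70 (1.54 to 1.89). The ratio of Bag1, another nucleotide exchange factor, was 1.04 (0.959 to 1.13), and that of Stub1, the ubiquitin ligase that marks chaperone clients for degradation, was 1.10 (0.997 to 1.21).

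Within the HSP40 family 2 of 6 members were past 1.5-fold. Dnaja1, the most counted HSP40, was at 1848 UMIs in wildtype (399 CPM) and 3795 UMIs in 3XTg-AD (818 CPM), a ratio of 2.05 (1.94 to 2.17). Dnajb1, the HSP40 that pairs with inducible HSP70, was at 117 and 207 CPM, a ratio of 1.78 (1.60 to 1.98). Dnajb4 had 97 and 137 UMIs (1.41, 1.08 to 1.85). The remaining ratios were 1.14 for Dnaja2, 1.10 for Dnajc7 and 0.987 for Dnajb6, which keeps aggregation-prone proteins soluble.

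No mitochondrial chaperone and no CCT subunit was past 1.5-fold in NK barcodes. Hspd1, the HSP60 ring, was at 149 CPM in wildtype and 215 CPM in 3XTg-AD (1.44, 1.31 to 1.59), and Hspe1, its HSP10 lid, at 258 and 324 CPM (1.26, 1.17 to 1.36). The mitochondrial HSP70 Hspa9 (0.891, 0.743 to 1.07) and the mitochondrial HSP90 Trap1 (0.811, 0.587 to 1.12) had ratios below 1, with intervals that included 1. All 7 CCT subunits had ratios above 1, from 1.07 for Cct5 and 1.08 for Cct2 to 1.43 for Cct4, and their sum went from 971 to 1180 CPM (1.21, 1.17 to 1.26). Subunits of 1 ring thus did not share 1 ratio: the intervals of Cct5 (0.966 to 1.19) and Cct4 (1.30 to 1.57) did not overlap. Hsf1, the main heat-shock factor, was at 43.4 and 46.6 CPM (1.07, 0.882 to 1.31). Hsf2 had only 17 and 20 UMIs and was not measured.

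In ILC1-like barcodes the same comparison gave smaller ratios for most of these genes. The 37 genes together made up 0.703% of wildtype and 0.807% of 3XTg-AD UMIs, a ratio of 1.15 (1.09 to 1.20). With a minimum of 30 UMIs, 31 members were measured, and 4 of them were past 1.5-fold on the 3XTg-AD side, against 7.3% of the 3888 genes measured, and 1 was lower, against 9.47%. The members' median log2 ratio was 0.11, beside -0.01 for all genes. The inducible HSP70 genes summed to 16 UMIs in wildtype (29.9 CPM) and 15 UMIs in 3XTg-AD (36.5 CPM), a ratio of 1.22 (0.562 to 2.64), and neither gene reached the minimum. Hspa8 went from 1462 to 1847 CPM (1.26, 1.14 to 1.40), while Hsp90ab1 (1649 and 1774 CPM, 1.08) and Hsp90aa1 (198 and 192 CPM, 0.970) had intervals that included 1.

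The 4 higher members in ILC1-like barcodes were St13 (51 and 85 UMIs, 2.17, 1.52 to 3.13), Dnajc7, an HSP40 that also binds HSP90 (28 and 46 UMIs, 2.14, 1.31 to 3.55), Ptges3 (75 and 103 UMIs, 1.79) and Cacybp (55 and 65 UMIs, 1.54). The lower member was Tcp1, the first CCT subunit (57 and 29 UMIs, 0.662, 0.408 to 1.05). St13 and Cacybp were past 1.5-fold in both classes. In ILC1-like barcodes Cacybp was at 1.37 when the class was called from 5 UMIs and 1.45 without dividing-cell UMIs, Ptges3 was at 1.19 when the class was called on thinned barcodes, and Tcp1 was nearer to 1 than 1.5-fold in 8 alternatives, up to 0.848. Of the 14 members higher in NK barcodes, 11 were measured in ILC1-like barcodes, and 9 of these had a ratio above 1 there. Among the 31 members measured in both classes, the NK ratio was the larger for 24. Counting intervals of the 2 classes were apart for 7 members: Hspa8, Hsp90aa1, Hsp90ab1, Bag3, Dnaja1 and Hspd1 had the NK interval above, and Dnajc7 had it below. Bag3 was at 2.22 in NK and 0.792 in ILC1-like barcodes, and Hspd1 at 1.44 and 0.742. These intervals hold counting error alone, so whether the classes differ beyond the spread between mice was not tested.

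**Figure D2:**
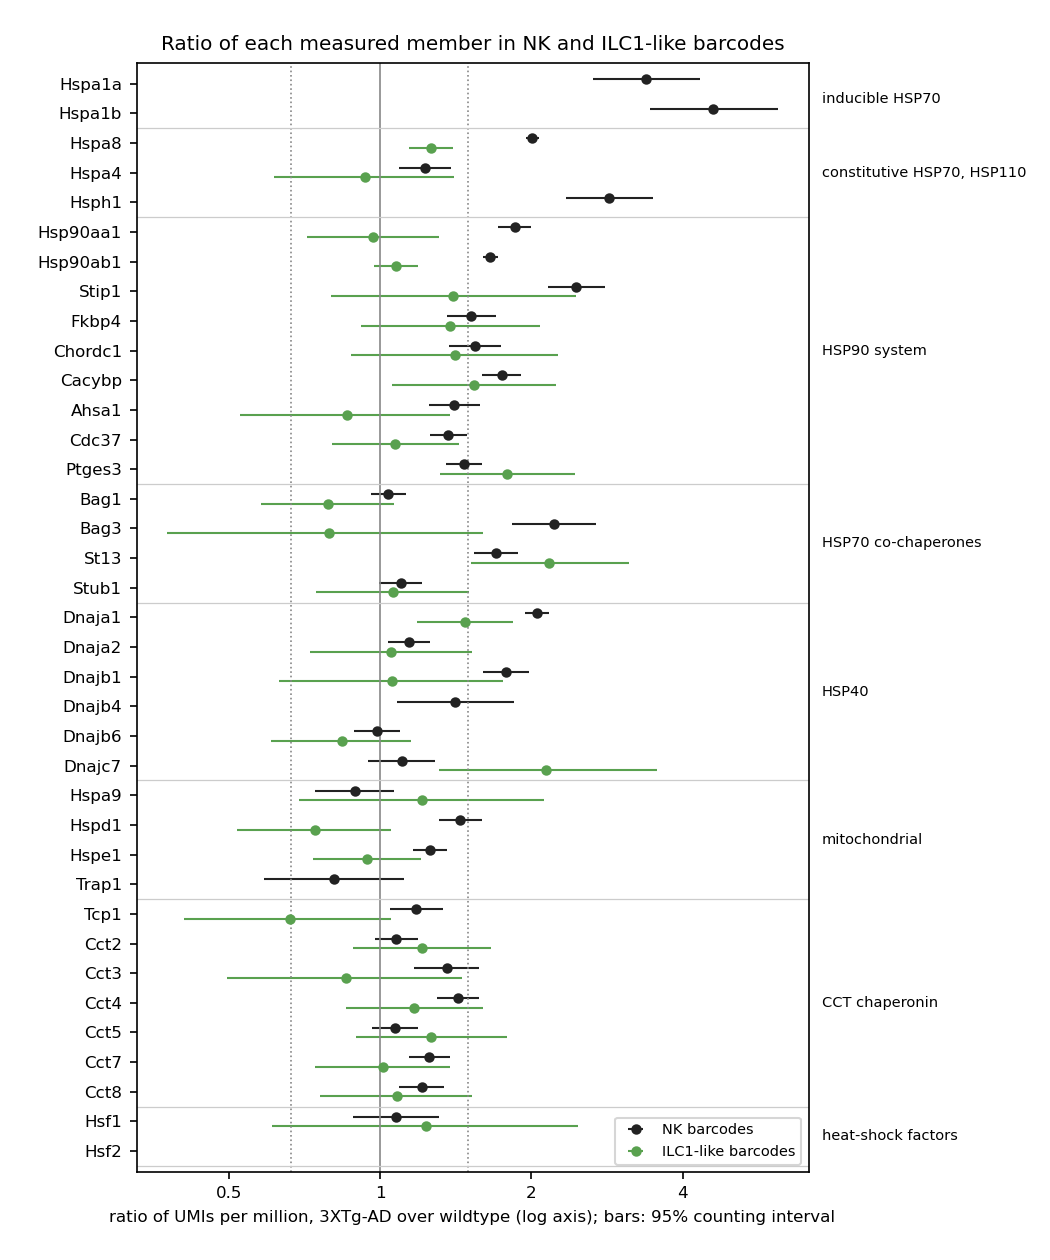
Ratio of 3XTg-AD over wildtype (log axis) for each measured member in NK (black) and ILC1-like (green) barcodes; bars are 95% counting intervals, the solid line marks 1 and the dotted lines 1.5-fold. Black points lie right of the line for 33 of 36 members, while green bars are wider and cross the line for 25 of 31.

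Within a library, the summed CPM values of NK and ILC1-like barcodes were close in wildtype and apart in 3XTg-AD. Ribosomal protein genes took a median of 17.6% (wildtype) and 15.7% (3XTg-AD) of UMIs in NK barcodes. In ILC1-like barcodes they took 29.2% and 30.8%. A larger share there lowers the CPM of all other genes, and the sums below were not rescaled for it. In wildtype the summed level of all members was 6955 CPM in NK and 7033 CPM in ILC1-like barcodes, a ratio of 1.01 (0.977 to 1.05). Not every group was level: without Hspa8 and Hsp90ab1 the wildtype ratio was 0.893 (0.853 to 0.934), and that of the HSP40 group was 0.807 (0.727 to 0.894), while Hsp90ab1 was at 1.36 (1.26 to 1.46). Of 36 members measured, 1 was at least 1.5-fold higher in ILC1-like barcodes (11.5% of 8485 genes) and 4 were lower (24.2%). In 3XTg-AD the sums were 11084 and 8071 CPM, a ratio of 0.728 (0.703 to 0.754; 0.699 without Hspa8 and Hsp90ab1), with 1 member higher (11.9% of 8435 genes) and 16 lower (31.4%). The wildtype ILC1-like sum, 7033 CPM, thus lay near the wildtype NK sum, and the 3XTg-AD NK sum was the highest of the 4. The 16 members included Hspa1a (0.269), Hspa1b (0.333), Dnajb1 (0.352), Stip1 (0.411), Hsph1 (0.432) and Hsp90aa1 (0.445). In wildtype the lower members were Hspa1a (3 UMIs in ILC1-like barcodes, 0.299, 0.0605 to 0.903), Hsph1 (0.506), Dnajb1 (0.594) and Cacybp (0.609). The higher member there was Hspa1b, the near-identical copy of Hspa1a, with 13 UMIs (1.91, 0.961 to 3.52). The sum of both copies had a ratio of 0.950 (0.529 to 1.59) in wildtype and 0.300 (0.167 to 0.498) in 3XTg-AD. Over all genes the median log2 ratio was -0.16 in wildtype and -0.26 in 3XTg-AD, beside -0.13 and -0.48 for the members, and with the ratios set to the all-gene median 10 members were lower in 3XTg-AD and 3 in wildtype. The 2 classes differ in depth. With all barcodes at 1400 UMIs, 4 members were lower in wildtype and 14 in 3XTg-AD, with 0 and 2 higher. The share of all genes past 1.5-fold was not counted after rescaling or thinning, so these member counts have no background beside them.

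**Figure D3:**
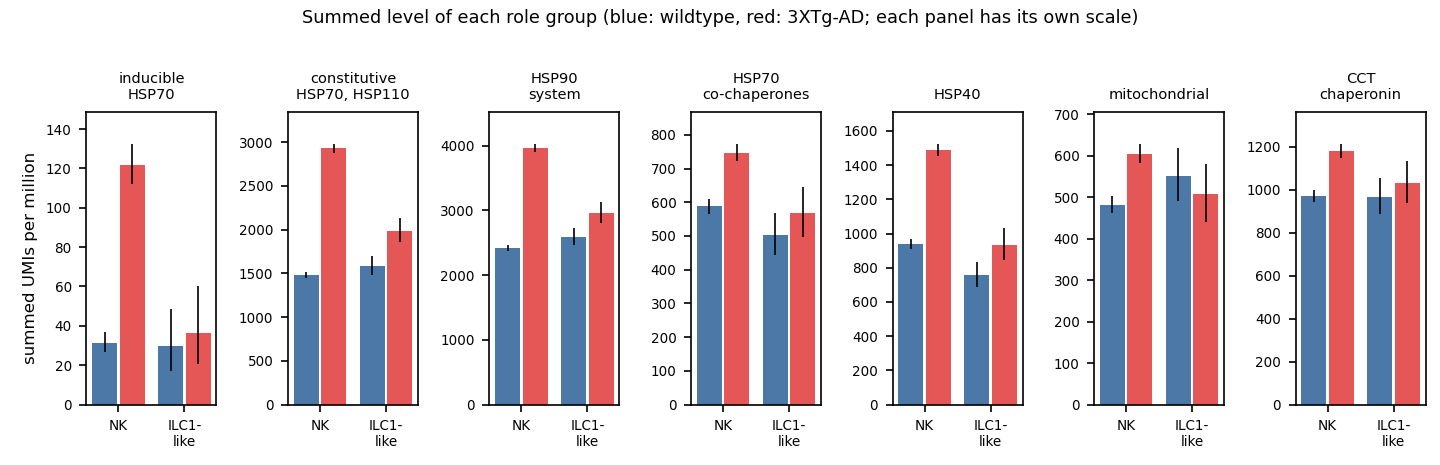
Summed CPM of the 7 role groups other than the heat-shock factors, in NK and ILC1-like barcodes of the wildtype (blue) and 3XTg-AD (red) library. Each panel is on its own scale from 0, with exact 95% counting intervals as bars. The red NK bar is the tallest in every panel, reaching 122 CPM for inducible HSP70 against 36.5 CPM in ILC1-like barcodes.

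The members' ratio was of similar size in 3 subsets of the NK barcodes. In barcodes with a UMI of Klrg1, a receptor of mature NK cells (714 wildtype and 719 3XTg-AD), the members' summed ratio was 1.60 (1.57 to 1.63). It was 1.61 (1.53 to 1.70) in those with Cd27 and no Klrg1 (125 and 99 barcodes), and 1.58 (1.55 to 1.62) in those with neither (656 and 702). Hspa8 gave 2.06, 2.12 and 1.92 in the same order, and the inducible HSP70 genes 4.34, 2.62 (1.43 to 4.99) and 3.66. In barcodes without a UMI of dividing-cell genes the summed ratio was 1.62 (1.59 to 1.64).

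Other cells in the same libraries also had a larger chaperone share in 3XTg-AD. T cell barcodes, 33 in wildtype and 35 in 3XTg-AD, gave a summed ratio of 1.28 (1.18 to 1.38). Of 22 members measured there, 5 were past 1.5-fold upward (10.5% of 1391 genes) and 1 downward (7.55%). Hspa8 was at 1.44 (1.22 to 1.71) and Dnaja1 at 2.01 (1.40 to 2.95) there. In the few barcodes with microglial genes, 10 and 29, the member share was 0.645% and 0.963%. The higher share in 3XTg-AD was therefore seen in all 4 classes counted, and a difference between the mice cannot be told apart from a difference between the 2 preparations.

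At the level of barcodes the whole distribution lay higher in 3XTg-AD. Of 1400 thinned UMIs, the median NK barcode held 9 member UMIs in wildtype (quartiles 6 and 12) and 14 in 3XTg-AD (10 and 20). The 90th percentile was 15 and 25 UMIs. In ILC1-like barcodes the medians were 8 and 10 UMIs. Hspa8 was found in 79.3% of thinned wildtype and 92.5% of 3XTg-AD NK barcodes, Dnaja1 in 39.3% and 63.3%, and Stip1 in 8.24% and 21.1%. Hspa1a, Hspa1b, Hspa8, Hsp90ab1 and Dnaja1 had variance-to-mean ratios above the 95th percentile of all genes in both libraries, and that of Hspa8 was 1.37 in wildtype and 2.17 in 3XTg-AD.

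**Figure D4:**
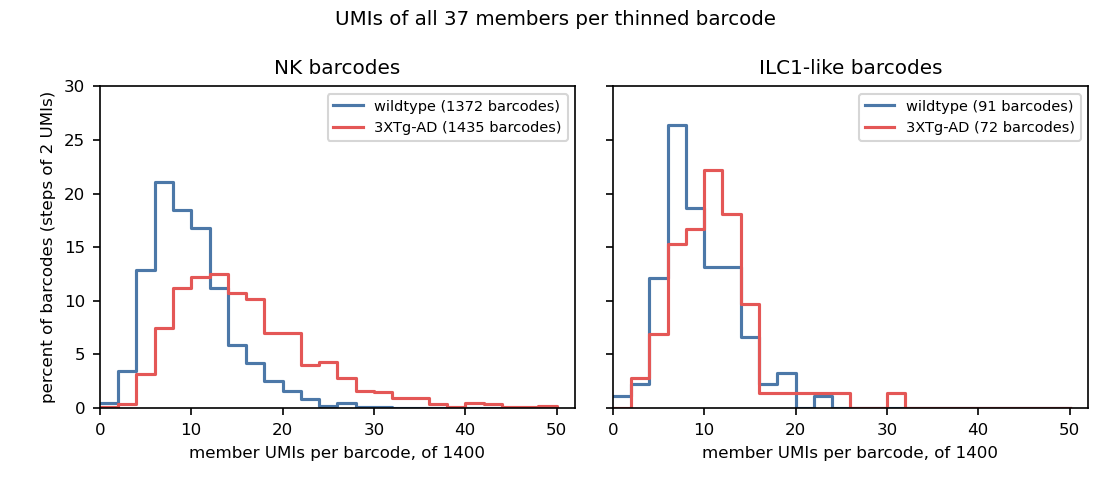
Distribution of the UMIs of all 37 members per barcode after thinning to 1400 UMIs, as percent of barcodes in steps of 2 UMIs, for NK (left) and ILC1-like (right) barcodes of each library. The 3XTg-AD NK curve is shifted from a median of 9 to 14 UMIs with a longer right tail, while the ILC1-like curves have medians of 8 and 10.

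Across NK barcodes a small core of members varied together weakly, within each library taken by itself. For the 30 members found in at least 5% of thinned barcodes, the median Pearson r of log2(UMIs + 1) over 435 pairs was 0.02 in wildtype and 0.02 in 3XTg-AD, against 0.00 over all gene pairs. The r exceeded 0.1 for 8 pairs in wildtype (1.84%) and 34 pairs in 3XTg-AD (7.82%), 7 of them in both, while 0.155% and 0.110% of all gene pairs did so. The leading pair was Hspa8 with Hsp90ab1 (r = 0.15 and 0.28), followed in 3XTg-AD by Hsp90aa1 with Hsp90ab1 (0.11 and 0.28) and Hsp90ab1 with Dnaja1 (0.13 and 0.26). Barcodes of a library share its preparation, and a gene with more UMIs has less counting noise. With each member thinned to the lower of its mean levels in the 2 libraries, 8 wildtype and 15 3XTg-AD pairs exceeded 0.1. Hspa8 with Hsp90ab1 gave 0.11 and 0.17, Hsp90aa1 with Hsp90ab1 0.08 and 0.18, and Hsp90ab1 with Dnaja1 0.07 and 0.17. That run used another random draw of the barcodes. The members of these pairs were lower in wildtype and lost no UMIs there to the levelling, so the wildtype changes reflect the draw.

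**Figure D5:**
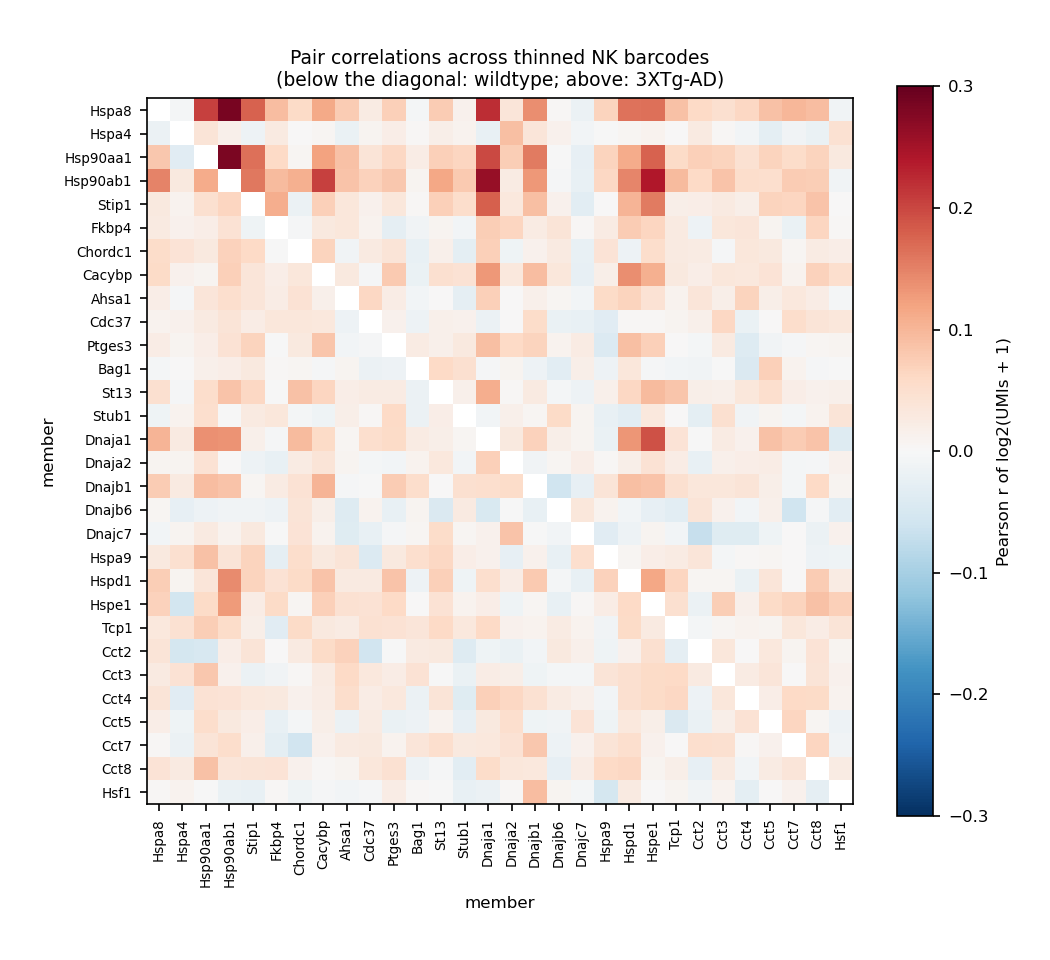
Pearson r of log2(UMIs + 1) for 435 pairs of 30 members across thinned NK barcodes, wildtype below and 3XTg-AD above the diagonal, on a colour scale from -0.3 to 0.3. The darkest cells join Hspa8, Hsp90aa1, Hsp90ab1, Dnaja1 and Hspe1, and the rows of CCT subunits are pale.

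Summed over role groups, the constitutive HSP70 group and the HSP90 system had an r of 0.16 in wildtype and 0.33 in 3XTg-AD, and the HSP90 system and HSP40 0.15 and 0.32. The inducible HSP70 genes had an r of 0.03 and 0.11 with the constitutive HSP70 group and 0.00 and 0.06 with the HSP90 system. With the CCT subunits it was 0.03 and 0.01. At 0.037 and 0.170 UMIs per thinned barcode counting noise keeps r low, so these values cannot show how closely the genes are related. In 3XTg-AD barcodes with an inducible HSP70 UMI, Hspa8 was 1.26 times (1.17 to 1.36) its level in those without, the HSP90 system 1.11 times (1.04 to 1.19) and CCT 1.02 times (0.899 to 1.15). The 39 wildtype barcodes with such a UMI had Hspa8 at 1.08 times (0.849 to 1.35). Dividing-cell genes differed more between these barcodes: they were at 7.30 times (4.54 to 11.3) in wildtype, from 25 UMIs in the barcodes with inducible HSP70, and at 1.98 times (1.29 to 2.98) in 3XTg-AD. These intervals treat each UMI as independent, although a few dividing cells could supply many of them. How many barcodes did so was not counted. Among NK barcodes without a dividing-cell UMI the inducible HSP70 ratio of 3XTg-AD over wildtype was 4.19 (3.44 to 5.14). Among 3513 other genes, those most like Hsp90aa1 in both libraries were Actb, Dnaja1, Hsp90ab1, Hnrnpa2b1 and Eif5a, with a lower r of 0.16 for Actb and 0.10 for Eif5a. For Dnajb1 they were Actb, Hsp90aa1, Cacybp, Hsp90ab1 and Actg1, for Hspd1 they were Hsp90ab1, Actb, Actg1, Atf6b and C1qbp, and for Cct3 they were Actb, Hsp90aa1, Ostf1, Dnajc21 and Hspe1. Hspa1a was found in too few barcodes to be ranked.

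Heat-shock units were sought in RefSeq promoter windows, which run from 250 bases before to 50 bases after a start and had an entry for 30 of the 37 members. The motifs were GAANNTTC and TTCNNGAA, each its own reverse complement, so that 1 search covers both strands; they overlap where units follow each other. At least 1 motif lay in a window of 15 of the 30 genes (50%), against 17.0% of all 27025 genes. A run of 3 or more units was found in 5 of 30 (16.7%), against 0.662% of all genes. Of the members past 1.5-fold in NK barcodes 7 of 10 with an entry had a motif (70%), and of the other measured members 8 of 19 (42.1%). Those 7 include both Hspa1a and Hspa1b, whose windows are nearly identical. No entry was held for Hspa8, Hsp90aa1, Hsp90ab1 and St13, all past 1.5-fold, nor for Hspa9, Cct4 and Hsf1. The shares therefore describe only part of the members. The runs of 3 or more units are printed with their units in capitals, on the strand of the gene named: Hspe1 at chr1:55088059-55088076, the stretch that also lies before Hspd1 on the other strand, Chordc1 at chr9:18292263-18292285, Hsph1 at chr5:149636288-149636300 and Dnajb6 at chr5:29735852-29735864.
Hspe1: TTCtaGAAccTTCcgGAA
Chordc1: GAAcgTTCggGAAaaTTCctGAA
Hsph1: TTCtgGAAagTTC
Dnajb6: GAAtcTTCcgGAA
Beside the length of the run, the ratios of these genes in NK barcodes were mixed. Hspa1a and Hspa1b, with 2 units, were at 3.38 and 4.59. Hsph1, with 3 units after its start and a separate pair before it, was at 2.86. Hspe1 and Hspd1, with 4 units, were at 1.26 and 1.44, Dnajb6, with 3 units, at 0.987, and Chordc1, with 5 units, at 1.55. Stip1, at 2.46, and Dnajb1, at 1.78, had no match in their windows, which says only that these letters are not there. The 250 bases before the Stip1 start (chr19:7040027-7040276, minus strand) are shown as a member with a high ratio and no match.
Stip1: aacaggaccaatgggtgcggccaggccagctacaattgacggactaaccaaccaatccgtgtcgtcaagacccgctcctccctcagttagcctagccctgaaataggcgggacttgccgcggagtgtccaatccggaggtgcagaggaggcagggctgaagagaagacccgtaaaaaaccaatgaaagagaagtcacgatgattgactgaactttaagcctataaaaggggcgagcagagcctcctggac

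Other chaperone genes outside the 37 were closer to 1 in NK barcodes. Of 46 measured, 3 lay past 1.5-fold on the 3XTg-AD side and 1 on the wildtype side, against 3.45% and 2.42% of all genes. Their median log2 ratio was 0.09. Both lists were chosen with earlier results of these data known, so the contrast with the 37 members is no independent result. Those with the largest ratios on the 3XTg-AD side were the HSP110 relative Hspa4l (2.0), the HSP40 genes Dnajb2 (1.90), Dnajb12 (1.46) and Dnajc15 (1.44), and the immunophilin Fkbp5 (1.56). Immediate early genes, which tissue handling can induce, were partly higher as well: 4 of 11 measured were past 1.5-fold, Fos (3.38), Jun (2.43), Dusp1 (2.41) and Nr4a1 (1.76), and none was lower. In ILC1-like barcodes none of 7 was higher and 4 were lower, against 7.3% and 9.47% of all genes. Across NK barcodes the inducible HSP70 genes and the immediate early genes had an r of 0.04 in wildtype and 0.10 in 3XTg-AD, and the part of handling in the chaperone ratios was not tested. All 10 ribosome biogenesis genes had ratios below 1 in NK barcodes (median log2 -0.28). Microglial markers summed to 61.5 and 97.5 CPM in NK barcodes, with 1 of 7 at 0 in 3XTg-AD, and the median mitochondrial share was 1.42% and 1.20%.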

How the data were processed

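Each deposited matrix holds counts, the number of UMIs of a gene in a barcode, with no normalization by the authors. Cell Ranger 3.1.0, STAR and mm10 are named in the submitters' processing notes, and per the file headers the matrices were written by software version 3.0.2. The 37 members and all gene lists were chosen with earlier results of these data known.

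Barcodes with under 300 genes (45 wildtype and 10 3XTg-AD), over 10% mitochondrial UMIs (2 and 0) or a doublet call by Scrublet in scanpy 1.11.5 (13 and 22) were left out, as were barcodes with 3 or more T cell UMIs or over 0.5% of UMIs from microglia, B, erythroid, neutrophil or other brain genes. A doublet of 2 NK cells cannot be seen this way. Of the ILC1-like barcodes, 85 and 70 lay in 1 Leiden cluster, which also held 76 and 44 NK barcodes. The libraries shared 1 barcode sequence.

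Counts were summed per library and class and scaled to CPM. Ratios carry exact conditional binomial 95% intervals, and shares exact Clopper-Pearson intervals. A gene was measured with at least 100 UMIs over both sums (30 where ILC1-like or T barcodes enter the comparison). Shares and correlations use 1 random thinning of each barcode to 1400 UMIs, apart from the alternatives for the correlations, which were drawn anew. Shallower barcodes dropped out (NK: 123 wildtype, 85 3XTg-AD; ILC1-like: 3 and 0). All members are named, of the other chaperone genes the 6 with the largest log2 ratio in either direction (1 of these is not reported here), and for 5 members the 5 genes most like each. Gene symbols come from the deposited files; Cct6a, on the list of other chaperone genes, was not matched. Promoter sequences come from RefSeq on GRCm38.p6. Ratio, interval and thinning were tested on simulated data. The alternatives changed the classes, filters, scaling, depth and thresholds.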

Additional observations from a re-analysis of the deposited data

Results flagged for a closer look

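Among immediate early genes, Jun, Zfp36 and the sum of all 13 had ratios on opposite sides of 1 in NK and ILC1-like barcodes, with both counting intervals clear of 1. Junb and Ier5 were above 1 in both classes, Jund and Btg2 were below 1 in both, and the ILC1-like interval of Ier2 included 1. Summed, the 13 genes gave 1.15 (1.12 to 1.18) in NK and 0.813 (0.729 to 0.905) in ILC1-like barcodes. Jun was at 2.43 (2.08 to 2.83) in NK and 0.372 (0.199 to 0.658) in ILC1-like barcodes, where it had 56 wildtype and 16 3XTg-AD UMIs. Zfp36 was at 1.34 (1.21 to 1.49) and 0.390 (0.163 to 0.844), with 30 and 9 UMIs in ILC1-like barcodes. No member did this. The difference between the classes was not tested, since each group is 1 library.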

How the results depend on the processing

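Of 1174 values recomputed under an alternative, 1115 stayed within their counting interval or within 1.5 times their count (median r: within its sampling error), 59 moved, and no value past 1.5-fold crossed 1. Smaller ratios did: 29 of 409 single-member values in ILC1-like barcodes, from 14 of 31 members (Cct4 down to 0.673, Hsp90aa1 up to 1.20), and 1 of 503 in NK barcodes. The NK summed ratio of all members ranged from 1.53 to 1.62, and in no setting was a member at least 1.5-fold lower in NK barcodes. At 2-fold in place of 1.5-fold, 7 members were higher in NK barcodes, 2 higher and 0 lower in ILC1-like barcodes, and 0 higher with 1 lower (wildtype) and 0 higher with 7 lower (3XTg-AD) in ILC1-like over NK. The share of all genes called was not counted under the alternatives, so the member counts of this section have no background beside them.

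Scaling to the median ratio of all genes gave 1.53 for all members, 1.90 for constitutive HSP70 and HSP110 and 1.58 for the HSP90 system in NK barcodes, 0 members lower in ILC1-like barcodes, and 2 higher (wildtype) and 3 higher with 10 lower (3XTg-AD) in ILC1-like over NK. A total without mitochondrial, ribosomal protein and member genes gave 1.56 for all members, 0 lower in ILC1-like barcodes, 2 higher with 2 lower (wildtype) and 3 higher with 10 lower (3XTg-AD) in ILC1-like over NK. Thinned barcodes gave 1.70 for the HSP90 system, 1.62 and 1.23 for all members in NK and ILC1-like barcodes, 0 lower in ILC1-like barcodes, and 0 (wildtype) and 2 (3XTg-AD) higher in ILC1-like over NK. These are expected values over all draws, used after 1 random draw had given Hspa8 a ratio of 0.986 and St13 one of 5.81 in ILC1-like barcodes, where the expected values are 1.29 and 2.36. The mean of per-barcode CPM gave 1.71 for the HSP90 system, 1.62 and 1.23 for all members in NK and ILC1-like barcodes, and 2 higher in ILC1-like over NK in 3XTg-AD.

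Calling ILC1-like from 2 UMIs gave 7 members higher in ILC1-like barcodes and 2 higher over NK in wildtype. From 5 UMIs, with NK at 0, it gave 1.01 for all members in ILC1-like barcodes, 3 lower, and 2 higher over NK in each library. NK-like clusters in place of the gate gave 0 lower in ILC1-like barcodes and 2 higher over NK in 3XTg-AD. Leaving out barcodes with dividing-cell UMIs gave 0 lower and 2 higher in the same comparisons, leaving out the 5% with the largest member share gave 0 lower, and lower count minimums gave 2 higher over NK in wildtype. An ILC1-like rule on thinned barcodes, chosen after seeing the data, left 41 and 14 ILC1-like barcodes and gave 1.60 for the HSP90 system and 1.56 for all members in NK barcodes, and 3 higher over NK in 3XTg-AD. Calls of single members that ended were Chordc1 and Fkbp4 in NK barcodes and Cacybp, Ptges3 and Tcp1 in ILC1-like barcodes, with their values given above. St13 in ILC1-like barcodes stayed between 2.01 and 2.44. Where an alternative only removes barcodes, fewer counts are compared; otherwise the cause was not tested. No paired analysis was possible because each group is 1 library. In the 94 and 72 ILC1-like barcodes inducible HSP70 had 16 and 15 UMIs, so a ratio up to 2.64 lies within counting error.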
